A study of Rattus norvegicus with 14 samples.

Results

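The 9 genes described here encode nuclear hormone receptors: the estrogen receptors Esr1 and Esr2, the glucocorticoid receptor Nr3c1, the mineralocorticoid receptor Nr3c2, the thyroid hormone receptors Thra and Thrb, the vitamin D receptor Vdr, and the liver X receptors (LXR) Nr1h2 and Nr1h3. They were chosen by name, with their values in these data known, and all 9 were found among the 16816 genes of the count table. RNA was sequenced from PCCL3 cells, a differentiated rat thyroid follicular cell line. One line, called PPFP cells, carried a stable transgene for the human PAX8-PPARG fusion protein (PPFP) found in thyroid carcinoma, tagged with 3xMyc. The control line, called EV cells, received the vector without an insert. Both lines received vehicle or 1 μM pioglitazone, a PPARG agonist, over 16 hours. The experiment was done 3 times, which gave 4 groups of 3 libraries. The medium of all 4 groups held 10 nM hydrocortisone, a ligand of Nr3c1 and Nr3c2, and 5% fetal bovine serum. Each condition rests on 1 EV line and 1 PPFP line, so an effect of PPFP cannot be told apart from other differences between the 2 lines.

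Nuclear receptors are transcription factors whose activity is set by small lipophilic ligands. The steroid receptors mostly bind DNA as homodimers after release from chaperones. The thyroid hormone, vitamin D and liver X receptors bind DNA with a retinoid X receptor as the partner, which is also the partner of PPARG. In the thyroid, follicular cells produce the ligand of Thra and Thrb and themselves express deiodinases that convert it.

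Libraries held between 23.7 and 35.2 M counts. All 10 thyroid follicular cell markers were detected, and their summed level lay between 10370 and 14640 CPM (read counts scaled to a common library size, with TMM factors over the 12 libraries). Single markers differed. In PPFP versus EV cells without pioglitazone 2 of the 10 were called higher and 3 lower, against 14.6% of all genes. Called means a fold change above 2 at an adjusted p under 0.05. For pioglitazone in PPFP cells 2 were called higher and 1 lower, against 2.42% of all genes, and 8 of the 10 had a negative log2 fold change. The sum was between 13680 and 14380 CPM in PPFP cells and between 10370 and 10590 CPM with pioglitazone, and its part in the values of the receptors was not tested. The summed level of 5 C cell markers was at most 0.0378 CPM, that of 7 leukocyte markers between 0.567 and 1.57 CPM and that of 4 endothelial markers between 0.215 and 1.48 CPM. Of 7 fibroblast markers, Col3a1, Dcn and Lum were at 0 in every library. In EV cells and in PPFP cells without pioglitazone 5 were at 0, and Col1a1 and Pdgfra made up the sum. Over all libraries the sum lay between 20.4 and 34.5 CPM, above that of the other non-thyroid lists. Pparg, whose counts do not separate the transgene from the endogenous gene, was at 1.23 to 1.81 CPM in EV cells and 46.8 to 59.8 CPM in PPFP cells, both with vehicle. Its log2 fold change was 5.08 (SE 0.19, adjusted p = 3.6e-06, edgeR's quasi-likelihood test), and that of Pax8, the other part of the fusion, was -0.08 (SE 0.09, adjusted p = 0.47). In bulk RNA, fewer cells that express a gene and less RNA per cell cannot be told apart.

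The start-site windows of Esr1, Thrb and Nr1h3, the 3 receptors called higher in PPFP cells without pioglitazone, are shown because they differ in base composition. The sequences come from RefSeq (GRCr8), run 5′ to 3′ and cover the 250 bases before 1 annotated start site of each gene. These starts lie inside the gene as annotated, 130410 bases from its 5′ end for Esr1, 3785 for Thrb and 8824 for Nr1h3, and sequence at the 5′ ends was not used here. Capitals mark CG dinucleotides.
Esr1, chr1:43641845-43642094, plus strand: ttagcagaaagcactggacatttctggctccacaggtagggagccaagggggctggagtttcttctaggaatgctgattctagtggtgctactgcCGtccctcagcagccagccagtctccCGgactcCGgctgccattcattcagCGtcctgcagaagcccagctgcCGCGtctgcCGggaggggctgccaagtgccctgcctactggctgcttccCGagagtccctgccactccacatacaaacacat
Thrb, chr15:10461447-10461696, minus strand: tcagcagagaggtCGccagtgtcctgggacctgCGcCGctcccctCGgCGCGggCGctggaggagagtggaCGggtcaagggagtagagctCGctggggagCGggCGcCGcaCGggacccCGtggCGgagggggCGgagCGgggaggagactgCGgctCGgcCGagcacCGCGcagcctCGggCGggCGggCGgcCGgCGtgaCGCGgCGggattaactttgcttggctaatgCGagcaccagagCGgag
Nr1h3, chr3:97623230-97623479, minus strand: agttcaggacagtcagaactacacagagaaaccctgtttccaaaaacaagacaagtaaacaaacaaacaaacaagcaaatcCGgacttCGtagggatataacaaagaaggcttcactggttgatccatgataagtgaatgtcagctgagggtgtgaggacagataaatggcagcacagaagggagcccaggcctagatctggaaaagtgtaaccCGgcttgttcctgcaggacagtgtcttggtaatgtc

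With the 50 bases after the start included, the Thrb window held 43 CG dinucleotides and 76% G and C, the Esr1 window 13 and 59.7%, and the Nr1h3 window 4 and 48%. The median over all 33469 windows was 7 CG dinucleotides and 51.7% G and C. For 8 of the 9 receptors a window was found. Their 10 windows held neither AGGTCA, the half-site of the retinoid X receptor partners, nor AGAACA, that of the steroid receptors Nr3c1 and Nr3c2, on either strand. Of all windows, 16.2% held AGGTCA and 20.7% held AGAACA.

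In PPFP cells without pioglitazone, Esr1, Thrb and Nr1h3 were higher than in EV cells, and Nr3c2 and Vdr were lower. These 5 of the 8 receptors tested were called, meaning that the fold change exceeded 2 at an adjusted p under 0.05, as for 14.6% of all 10264 genes tested. Esr1 passed the filter on low counts only through its PPFP libraries. With at least 10 counts required in every compared library, which left Esr1 out, 4 of 7 were called against 10.3% of all genes. An adjusted p under 0.05 alone was reached by 7 of the 8, all but Nr1h2, and by 45.2% of all genes. The PPFP and EV libraries did not overlap for 7 of the 8, and for 56.0% of all genes. The median absolute log2 fold change was 1.01 over the 8 receptors and 0.33 over all genes. With pioglitazone in both cell lines, 7 of the 8 were called against 19.7% of 10291 genes. With at least 10 counts required in every compared library, again without Esr1, 6 of 7 were called against 14.8%. All 8 had an adjusted p under 0.05, against 52.7% of all genes, and all 8 had groups that did not overlap, against 62.9%. Because the receptors were chosen with these values known, the receptors' fold changes below are a description and carry no p-values. Where a receptor is said to pass a threshold, that is a description too.

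**Figure D1:**
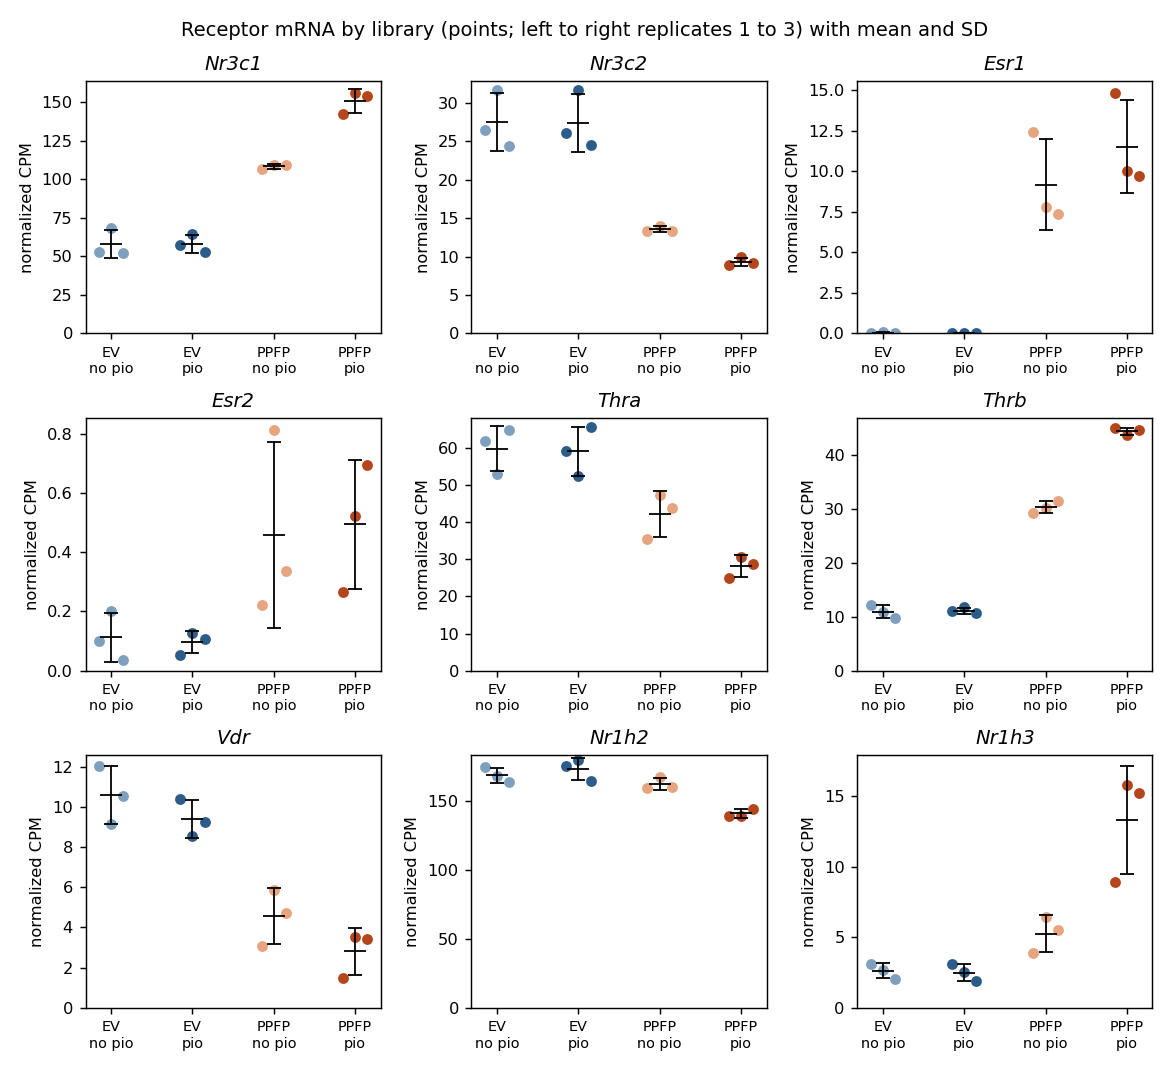
Normalized CPM of each receptor (vertical axes from 0) in the 4 groups, without pioglitazone (no pio) or with it (pio). Points are libraries, and bars give the mean and SD of 3 libraries. Esr1 lay at 0.0669 CPM or less in every EV library and at 7.35 CPM or more in every PPFP library.

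The glucocorticoid receptor Nr3c1 (chr18:31522783-31644508, GRCr8) mediates the response to cortisol and to the hydrocortisone of the medium. It was at 52.8, 68.3 and 52.4 CPM in EV cells without pioglitazone and at 57.2, 64.4 and 53.0 CPM with it. In PPFP cells it was at 107, 110 and 109 CPM without pioglitazone and at 142, 156 and 154 CPM with it. The EV groups overlapped, every PPFP library was above every EV library, and the PPFP groups did not overlap each other. The log2 fold change of PPFP versus EV cells was 0.93 (SE 0.12) without pioglitazone, just under 2-fold, and 1.40 (SE 0.10) with it. Without replicate 2 of the EV cells the first value was 1.07 and Nr3c1 was called.

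The mineralocorticoid receptor Nr3c2 (chr19:47619853-47964089), which binds aldosterone and also cortisol, followed the opposite order. It was at 26.4, 31.7 and 24.4 CPM in EV cells without pioglitazone and at 26.0, 31.7 and 24.6 CPM with it. In PPFP cells it was at 13.3, 14.0 and 13.4 CPM, and with pioglitazone at 8.88, 9.92 and 9.11 CPM. The EV groups overlapped, whereas the PPFP groups lay below them and apart from each other. PPFP versus EV cells gave -1.001 (SE 0.13) on the log2 scale without pioglitazone and -1.53 (SE 0.13) with it. The first of these sits at the 2-fold limit and was called under 8 of 14 other settings. It was not called without EV replicate 2 (-0.88), PPFP replicate 1 (-0.96) or PPFP replicate 3 (-0.98).

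The ratio of Nr3c1 to Nr3c2 counts within a library does not depend on library size. It was 2.0, 2.15 and 2.15 in EV cells and 2.20, 2.03 and 2.16 in EV cells with pioglitazone. It was 8.03, 7.83 and 8.16 in PPFP cells, and 16.0, 15.8 and 16.9 in PPFP cells with pioglitazone. Neither PPFP group overlapped an EV group or the other PPFP group in this ratio, which moved further than either gene alone. Both follow from the opposite directions of the 2 genes and are no separate result.

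The estrogen receptor Esr1 (chr1:43511685-43904454) was almost absent from EV cells, with 0, 2 and 0 counts without pioglitazone and 0, 0 and 1 counts with it. In PPFP cells it had 338, 211 and 174 counts without pioglitazone and 392, 268 and 293 counts with it. In CPM these were 12.4, 7.80 and 7.35, and 14.8, 10.0 and 9.71. Every EV library was at or under the floor of 3 counts per library, which puts the excess of Esr1 in PPFP cells at no less than 90.7-fold without pioglitazone and 121-fold with it. The PPFP groups with and without pioglitazone overlapped.

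The second estrogen receptor, Esr2 (chr6:100589553-100645240), had 3, 6 and 1 counts in EV cells and 2, 4 and 3 with pioglitazone, against 6, 22 and 8 counts in PPFP cells and 7, 14 and 21 with pioglitazone. These counts were too low for both PPFP versus EV fits, which left Esr2 out. A single fit of all 12 libraries kept Esr2, but only through the PPFP libraries, where it is high, so its calls there are a description. In that fit it was called higher in PPFP cells both without and with pioglitazone. Counting Esr2, 6 and 8 of 9 receptors were then called, against 15.5% and 20.3% of all genes. With no filter on low counts Esr2 was called only with pioglitazone. Over the summed counts, 10 against 36 without pioglitazone, the ratio of PPFP to EV cells scaled by library size was 4.11 with a 95% exact interval from 2.0 to 9.28. With pioglitazone, 9 against 42 counts gave 5.38 with an interval from 2.58 to 12.6. Without pioglitazone, PPFP replicate 2 held 22 of the 36 counts, and the ratio was 2.44 without it and 6.82 without EV replicate 2. With pioglitazone it was between 4.21 and 6.56 when 1 library was left out. The intervals cover counting error only.

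The thyroid hormone receptor Thrb (chr15:10115954-10465231) was at 12.2, 10.8 and 9.73 CPM in EV cells and at 11.1, 11.7 and 10.6 CPM with pioglitazone. It was at 29.2, 30.2 and 31.5 CPM in PPFP cells and at 44.9, 43.6 and 44.5 CPM with pioglitazone. Only the EV groups overlapped each other. Between PPFP and EV cells the log2 fold change was 1.49 (SE 0.12) without pioglitazone and 2.02 (SE 0.08) with it.

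Its paralog Thra (chr10:84198141-84225659) was lower in PPFP cells. It was at 61.8, 53.0 and 64.8 CPM in EV cells and at 59.3, 52.5 and 65.7 CPM with pioglitazone, against 35.4, 47.4 and 44.0 CPM in PPFP cells and 24.9, 30.7 and 28.8 CPM with pioglitazone. The PPFP groups overlapped neither the EV groups nor each other. PPFP versus EV cells gave a log2 fold change of -0.48 (SE 0.13) without pioglitazone and -1.04 (SE 0.12) with it. The second value fell short of 2-fold without EV replicate 3 (-0.99) or PPFP replicate 1 (-0.95). Thra overlaps the circadian repressor Nr1d1 on the opposite strand by 1061 bases, and the library kit does not mark strand, so reads there cannot be told apart. Nr1d1 itself had a log2 fold change of -0.39 (SE 0.25, adjusted p = 0.23, edgeR) in PPFP versus EV cells without pioglitazone.

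The ratio of Thrb to Thra counts was 0.197, 0.205 and 0.150 in EV cells and 0.187, 0.223 and 0.161 in EV cells with pioglitazone. It was 0.824, 0.637 and 0.716 in PPFP cells, and 1.80, 1.42 and 1.55 in PPFP cells with pioglitazone, where Thrb counts exceeded Thra counts in 3 of 3 libraries. No gene lengths entered these ratios, so they compare groups and not the amounts of the paralogs.

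**Figure D2:**
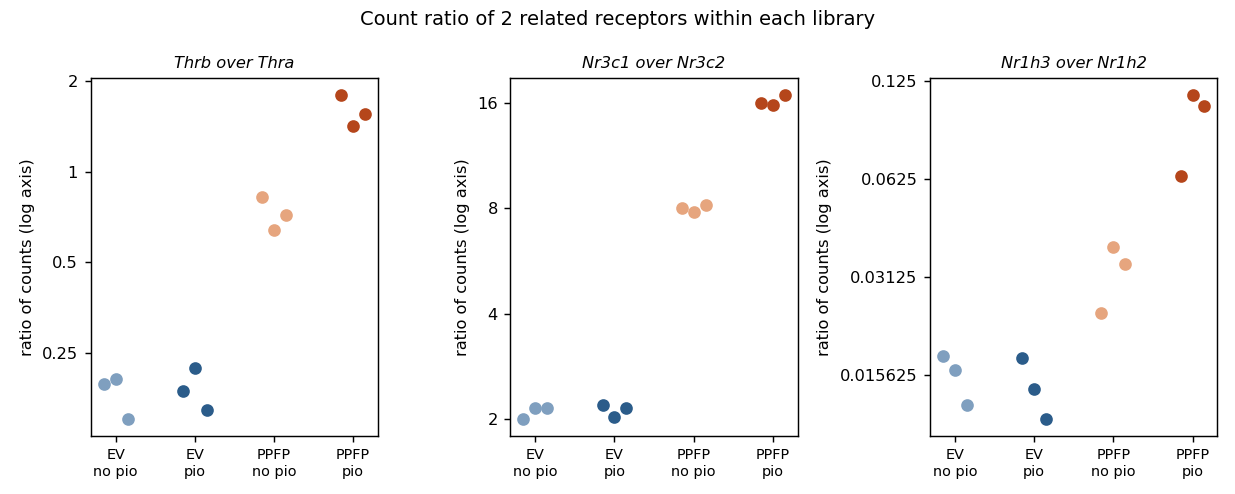
Ratio of the raw counts of 2 related receptors within each library (vertical axes, log scale) in the 4 groups, without (no pio) and with pioglitazone (pio). Points are libraries. In each pair the PPFP libraries lie above the EV libraries, and the PPFP libraries with pioglitazone lie above those without.

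The vitamin D receptor Vdr (chr7:130864764-130916757) was at 12.1, 9.17 and 10.6 CPM in EV cells and at 10.4, 8.54 and 9.26 CPM with pioglitazone. It was at 3.08, 5.88 and 4.73 CPM in PPFP cells and at 1.47, 3.54 and 3.44 CPM with pioglitazone. The PPFP groups lay below both EV groups but overlapped each other, and replicate 1 was the lowest library of each PPFP group. Relative to EV cells the log2 fold change was -1.19 (SE 0.24) without pioglitazone and -1.70 (SE 0.31) with it. Without replicate 1 of the PPFP cells the first value was -0.95 and Vdr was not called.

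Of the liver X receptors, which bind oxysterols, the widely expressed Nr1h2 (chr1:104178483-104183863) differed little between groups. It was at 174, 168 and 164 CPM in EV cells and at 175, 179 and 164 CPM with pioglitazone, against 159, 167 and 160 CPM in PPFP cells and 139, 139 and 144 CPM with pioglitazone. Only the PPFP libraries with pioglitazone lay apart from all others. The log2 fold change of PPFP versus EV cells was -0.04 (SE 0.08) without pioglitazone and -0.27 (SE 0.07) with it.

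Nr1h3 (chr3:97614616-97632053), a known target of PPARG in other cells, was at 3.11, 2.71 and 2.06 CPM in EV cells and at 3.08, 2.53 and 1.87 CPM with pioglitazone. It was at 3.85, 6.43 and 5.49 CPM in PPFP cells and at 8.88, 15.8 and 15.2 CPM with pioglitazone. The EV groups overlapped, and the PPFP groups lay above them and apart from each other. Replicate 1 was the lowest library of each PPFP group. The log2 fold change of PPFP versus EV cells was 1.02 (SE 0.26) without pioglitazone and 2.44 (SE 0.29) with it, and the first of these was called under 10 of 14 other settings. It was not called without EV replicate 3 (0.86), PPFP replicate 2 (0.86) or PPFP replicate 3 (1.00). The ratio of Nr1h3 to Nr1h2 counts was between 0.0114 and 0.0178 in the 6 EV libraries, between 0.0242 and 0.0385 in PPFP cells and between 0.0638 and 0.114 in PPFP cells with pioglitazone.

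The receptors were next compared between PPFP cells with and without pioglitazone. Nr1h3 had the highest log2 fold change, 1.35 (SE 0.29), followed by Thrb with 0.55 (SE 0.06) and Nr3c1 with 0.48 (SE 0.06). Vdr (-0.68, SE 0.39), Thra (-0.58, SE 0.14), Nr3c2 (-0.54, SE 0.09) and Nr1h2 (-0.20, SE 0.05) had lower values with pioglitazone. Esr1 (0.32, SE 0.25) and Esr2 (0.12, SE 0.58) had groups that overlapped. Nr1h3 alone was called, 1 of 9 receptors against 2.42% of 10064 genes. An adjusted p under 0.05 was reached by 6 of 9, all but Esr1, Esr2 and Vdr, against 14.8% of all genes, and the same 6 had groups that did not overlap, against 34.1%. Only Nr3c1 and Thrb kept an adjusted p under 0.05 without PPFP replicate 3 without pioglitazone, where 6.24% of all genes had one. They and Nr3c2 kept it without replicate 2 without pioglitazone or replicate 2 or 3 with it (6.45% to 7.46% of all genes), and with Nr1h3 without replicate 1 with it (13.1%). The call of Nr1h3 was lost when replicate 2 or 3 of either PPFP group was left out, with log2 fold changes from 1.14 to 1.56 over the libraries left out in turn.

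Equal replicate numbers were taken to mark 1 experiment, which the labels do not state. Within a cell line, libraries of equal number had correlated deviations from their group means. In PPFP cells replicates 2 and 3 correlated across numbers as well. With the replicate number as a block, 8 of 9 receptors had an adjusted p under 0.05, Esr1 and Vdr being added, against 51.7% of all genes. Nr1h3 remained the only receptor called, at 1.34 (SE 0.09), against 3.20% of all genes.

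In EV cells, no receptor was called among the 7 tested, and no gene was called in the whole table (0.00% of 10146 genes, and 0.00% at an adjusted p under 0.05). At an unadjusted p under 0.05 there were 16 genes with edgeR's quasi-likelihood test, 11 with its exact test and 7 with DESeq2, and none of these 3 tests called a gene. All 3 counts lie below the share of 0.05 that genes without a difference would give. These fits left out the replicate number, although same-numbered EV libraries deviated together, so they may miss small responses. With the replicate number as a block there were 605 genes at an unadjusted p under 0.05, 1 gene at an adjusted p under 0.05 and none called. The log2 fold changes of the 7 receptors lay between -0.17 (Vdr, SE 0.14) and 0.03 (Nr1h2, SE 0.08). The groups overlapped for all 7, whereas 1.46% of all genes had groups that did not.

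The response to pioglitazone was compared between the cell lines with an interaction term over the 12 libraries. The difference, PPFP minus EV, was 1.40 (SE 0.41) on the log2 scale for Nr1h3, 0.52 (SE 0.14) for Thrb and 0.46 (SE 0.16) for Nr3c1. It was -0.58 (SE 0.18) for Thra, -0.55 (SE 0.18) for Nr3c2, -0.52 (SE 0.42) for Vdr and -0.25 (SE 0.09) for Nr1h2. No receptor was called, against 0.925% of 10482 genes, or reached an adjusted p under 0.05, against 2.64%, whereas DESeq2 called Nr1h3, against 1.33% of all genes. With DESeq2, Nr1h3 and Thrb had an adjusted p under 0.05, against 5.73% of all genes. Without EV replicate 3 without pioglitazone, Thrb had an adjusted p under 0.05, against 2.12% of all genes. With the replicate within each cell line as a block, Nr1h3 was called at 1.40 (SE 0.15), against 2.57% of all genes, and 7 of 9 receptors had an adjusted p under 0.05, all but Esr1 and Esr2, against 34.3%.

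**Figure D3:**
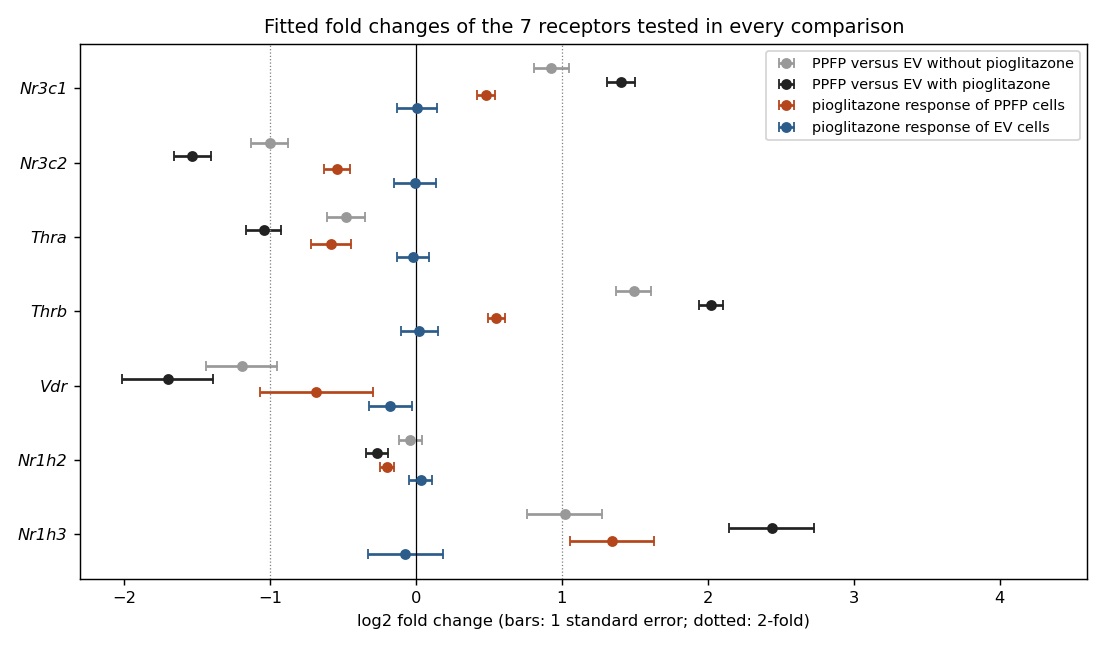
Fitted log2 fold changes (horizontal axis) of the 7 receptors tested in every comparison, with bars of 1 standard error and dotted lines at 2-fold. The values of EV cells with versus without pioglitazone lie between -0.17 and 0.03, and those of PPFP versus EV cells lie further from 0 with pioglitazone than without for each of the 7.

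The retinoid X receptors, partners of Thra, Thrb, Vdr and both liver X receptors, split as well. Rxra fell in PPFP cells, from 20.7, 22.0 and 19.8 CPM to 10.1, 8.5 and 8.49 CPM (log2 fold change -1.18, SE 0.12, adjusted p = 0.00021, edgeR). Rxrg had 0, 5 and 5 counts in EV cells and 82, 99 and 64 counts in PPFP cells, and with pioglitazone its excess in PPFP cells was at least 52.0-fold. Rxrb had a log2 fold change of -0.35 (SE 0.16, adjusted p = 0.12). Without pioglitazone, 2 of these 3 genes were called, Rxrg up and Rxra down, and none was called for pioglitazone in PPFP cells. There Rxrg had 0.66 (SE 0.19, adjusted p = 0.064), and 0.66 (SE 0.12, adjusted p = 9e-05) with the replicate block.

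Of 20 other nuclear receptors tested, 2 were called higher and 3 lower in PPFP cells without pioglitazone. One of those called higher was Pparg, whose counts include the transgene. For the other 19, 1 was called higher and 3 lower, and the median absolute log2 fold change was 0.52 against 0.33 over all genes. Nr2f2, an orphan receptor, rose from 14.9, 13.9 and 14.2 CPM to 33.4, 29.1 and 27.4 CPM (log2 fold change 1.09, adjusted p = 0.00018, edgeR). Esrrb, an estrogen-related receptor that binds no estrogen, fell from 16.5, 21.9 and 10.1 CPM to 0.220, 0.148 and 0.380 CPM (-6.00, adjusted p = 4.5e-05). Nr5a1, a regulator of steroidogenesis, was called lower at -1.19 (adjusted p = 0.027), at levels of at most 1.81 CPM, and was not called without EV replicate 1 or 2 or PPFP replicate 1 or 3 (values from -1.22 to -0.91). Esrrg (-0.91, adjusted p = 0.019) and Nr4a2 (0.92, adjusted p = 0.009) changed by less than 2-fold. Without EV replicate 3 both were called, Esrrg at -1.12 and Nr4a2 at 1.01, and without PPFP replicate 1 Nr4a2 was called at 1.12. The retinoic acid receptor Rarb, named after its values were seen, fell from 1.17, 1.41 and 1.54 CPM to 0.477, 0.481 and 0.549 CPM (-1.42, adjusted p = 0.0027). With pioglitazone in PPFP cells it rose to 1.25, 0.821 and 0.961 CPM, at the 2-fold limit (fold change 2.01, adjusted p = 0.041), and this call was lost without any 1 of the 6 libraries (log2 fold changes from 0.83 to 1.12, adjusted p from 0.079 to 0.14).

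Target genes of the receptors were taken from lists of genes known in other tissues. The lists share genes, and a shared gene counts in each. Sgk1 is also among the mineralocorticoid targets and Klf9 among the thyroid hormone targets. Nrip1 is among the estrogen targets and the coregulators. Of 15 glucocorticoid targets tested in PPFP versus EV cells without pioglitazone, 4 were called higher and 3 lower, with a median log2 fold change of 0.0070 against 0.0016 over all genes. The metallothionein Mt1a fell from 66.0, 73.5 and 102 CPM to 10.2, 8.95 and 8.15 CPM (-3.12, adjusted p = 1.5e-05, edgeR), and Mt2A by 2.17 on the log2 scale (adjusted p = 4.3e-05). The transcription factor Klf9 fell by 1.26 (adjusted p = 0.00046). The kinase Sgk1 rose from 25.4, 22.8 and 26.8 CPM to 105, 75.8 and 73.8 CPM (1.79, adjusted p = 8.5e-05), and Fam107a rose by 1.72 (adjusted p = 0.0038). Fkbp5, a cochaperone induced by glucocorticoids in many cells, had a log2 fold change of 0.01 (adjusted p = 0.97), Tsc22d3 one of -0.63 (adjusted p = 0.054) and the clock gene Per1 one of -0.44 (adjusted p = 0.048). None of the 15 was called for pioglitazone in PPFP cells. At an adjusted p under 0.05 there were 2 of the 15, and 13 with the replicate block, where 51.7% of all genes passed.

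Of 11 mineralocorticoid targets, 3 were called higher and 1 lower. The epithelial sodium channel subunits differed in direction, with Scnn1b at 2.77 (adjusted p = 0.00062, edgeR), Scnn1a at -1.44 (adjusted p = 0.0089) and Scnn1g at 0.68 (adjusted p = 0.13). Edn1, which encodes endothelin 1, rose by 1.04 (adjusted p = 0.012), under 2-fold without any one of the EV replicates 1 and 3 and PPFP replicate 1 (0.83 to 1.00). With pioglitazone in PPFP cells, Scnn1g rose from 20.2, 26.6 and 24.4 CPM to 35.4, 56.9 and 53.2 CPM (1.03, adjusted p = 0.02). Scnn1g was not called when any 1 library other than PPFP replicate 1 with pioglitazone was left out.

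Of 9 estrogen targets tested, 1 was called higher and 1 lower. The corepressor Nrip1 rose by 1.25 (adjusted p = 0.00014, edgeR) and the growth factor binding protein Igfbp4 fell by 2.13 (adjusted p = 0.0065). The progesterone receptor Pgr had at most 1 count in any library, also in the PPFP libraries in which Esr1 was present.

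Of 8 thyroid hormone targets tested, 2 were called higher and 2 lower. The uncoupling protein Ucp1 had 3, 0 and 3 counts in EV cells and 3044, 2033 and 1737 counts in PPFP cells, an excess of at least 857-fold, and it rose further with pioglitazone by 1.99 (adjusted p = 0.0023, edgeR). Ucp1 is also a PPARG target. Malic enzyme Me1 rose in PPFP cells by 1.02 (adjusted p = 0.0026), and by less than 2-fold without EV replicate 2 (0.85) or PPFP replicate 1 (0.91). Thrsp had a log2 fold change of -0.10 (adjusted p = 0.68). The deiodinase Dio1, which makes the active hormone, was at 294, 252 and 244 CPM in EV cells and at 196, 195 and 185 CPM in PPFP cells (-0.44, adjusted p = 0.009), and fell to 122, 106 and 105 CPM with pioglitazone (-0.78, adjusted p = 0.001). Dio2 had at most 1 count in any library.

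Only 3 of 13 vitamin D targets in the table were tested, and 2 were called, both lower in PPFP cells. They were the bone matrix protein Spp1 (-5.18, adjusted p = 7.3e-06, edgeR) and the endocytic receptor Lrp2 (-1.06, adjusted p = 0.00026), the latter at -0.97 and not called without PPFP replicate 1. Cyp24a1, the gene most strongly induced by active vitamin D in many tissues, had at most 1 count in any library.

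Of 10 liver X receptor targets tested, 2 were called higher and 1 lower in PPFP cells without pioglitazone, and for pioglitazone in PPFP cells 1 was called higher and 2 lower. The cholesterol exporter Abcg1 was at 38.5, 41.1 and 38.2 CPM in PPFP cells and rose to 72.3, 87.7 and 87.9 CPM with pioglitazone (1.08, adjusted p = 0.0014, edgeR). The sterol transporter Abcg5 was higher in PPFP than in EV cells (1.06, adjusted p = 0.016) and fell with pioglitazone (-1.38, adjusted p = 0.027). Its first call was lost without any one of 4 libraries (EV replicates 2 and 3, PPFP replicates 2 and 3; 0.88 to 1.04), and its second without PPFP replicate 2 of either group or replicate 3 without pioglitazone (-1.35 to -1.26). Its partner Abcg8 rose by 1.28 in PPFP cells (adjusted p = 0.0015) and fell by 0.87 with pioglitazone (adjusted p = 0.0041). Mylip, which promotes degradation of the LDL receptor, fell by 0.42 in PPFP cells (adjusted p = 0.0033). The desaturase Scd fell in PPFP cells (-1.08, adjusted p = 0.018) and further with pioglitazone (-1.78, adjusted p = 0.0064). The first call of Scd was lost without EV replicate 1 (-0.80), PPFP replicate 1 (-0.92) or PPFP replicate 3 (-1.10).

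Abca1, the best known liver X receptor target, was at 161, 190 and 83.8 CPM in EV cells and at 249, 268 and 116 CPM with pioglitazone. It was higher at each of the 3 replicate numbers although the groups overlapped. The log2 fold change was 0.54 (SE 0.40, adjusted p = 1, edgeR) without a block and 0.53 (SE 0.04, adjusted p = 0.0042) with the replicate number as a block, where it was the 1 gene of 10146 with an adjusted p under 0.05. In PPFP cells the value was -0.07 (SE 0.24, adjusted p = 0.88), and -0.07 (SE 0.04, adjusted p = 0.21) with the block. The difference in response between the cell lines was -0.63 (SE 0.51, adjusted p = 0.73), and -0.61 (SE 0.07, adjusted p = 1.4e-05) with the block within each cell line.

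Among 22 tested genes of ligand metabolism and transport, 3 were called higher and 3 lower in PPFP cells without pioglitazone. Hsd11b1, which regenerates active glucocorticoid, rose from 32.3, 37.0 and 23.8 CPM to 72.7, 72.0 and 74.8 CPM (1.26, adjusted p = 0.0007, edgeR), whereas H6pd, which supplies its cofactor, fell by 1.21 (adjusted p = 8e-05). Hsd11b2, which inactivates glucocorticoid, had a log2 fold change of -0.26 (adjusted p = 0.62). Of the enzymes that interconvert estradiol and estrone, Hsd17b2 rose by 3.18 (adjusted p = 0.00067) and Hsd17b1 fell by 1.36 (adjusted p = 0.00019). Of 13 receptor chaperones, 12 had a positive log2 fold change, none was called, and 4 had an adjusted p under 0.05, a smaller share than the 45.2% of all genes. Of 19 coregulators 1 was called higher and 1 lower, the latter being Ppargc1a (-1.17, adjusted p = 0.0082), which was at -0.84 and not called without EV replicate 2.

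**Figure D4:**
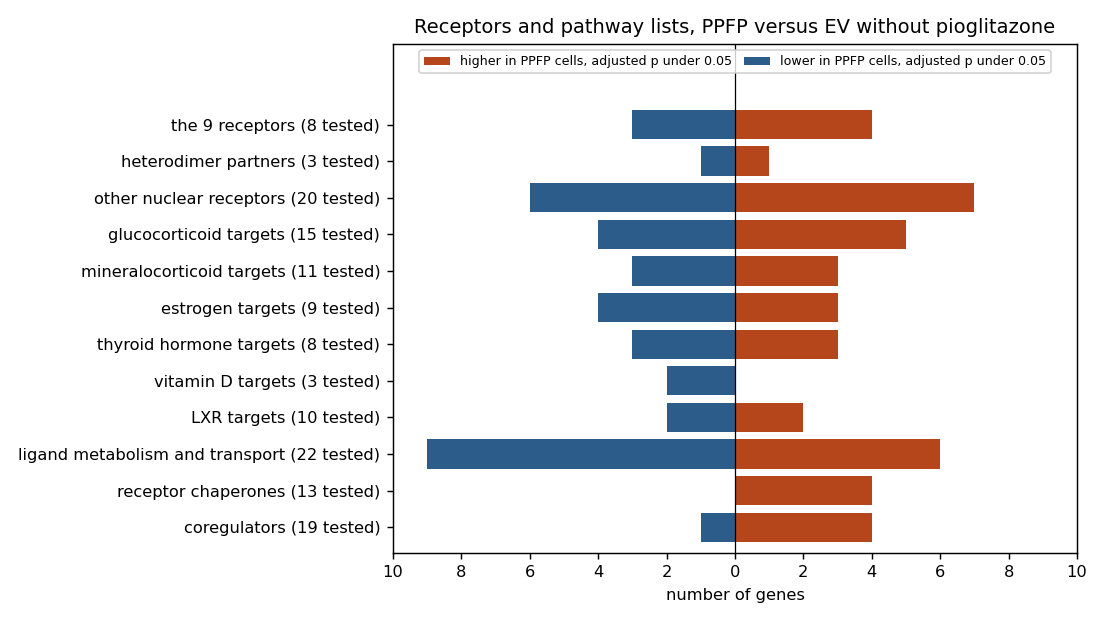
Number of genes (horizontal axis) of the receptors and of each pathway list with an adjusted p under 0.05 in PPFP versus EV cells without pioglitazone, higher to the right and lower to the left. Both directions occur in every list except the vitamin D targets and the receptor chaperones. A gene shared by lists is counted in each.

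Over all lists, 34 of 126 tested genes (26.98%) were called in PPFP versus EV cells without pioglitazone, 17 in each direction, against 14.6% of all genes. With pioglitazone 40 of 127 (31.5%) were called, against 19.7%. For pioglitazone in PPFP cells 7 of 123 (5.69%) were called, against 2.42%. The lists were written with results of these data known, so these shares are a description.

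The genes most like 3 of the receptors over the 12 libraries were found by Pearson's r of log2 CPM among 9630 genes. For Esr1 these were Unc13c, Sult1b1 and Cfd, the first with r = 0.995. For Thrb they were Pmm1 (r = 0.997), Hyal1 and Wnt7a, and for Vdr Lrrc46 (r = 0.993), Trim46 and Ddah2. The libraries share the difference between the cell lines, and 608 genes had r above 0.95 with Esr1, 576 with Thrb and 169 with Vdr.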

How the data were processed

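RNA from 12 cultures of PCCL3 cells was measured. The authors aligned the reads to rn4 with TopHat2 2.0.11, counted reads per gene with HTSeq 0.6.1p1 and deposited raw counts by gene symbol, without normalization or pooling. Every library column was matched to a sample. The authors also deposited ChIP-seq peaks of PPFP as rn4 positions without gene names, and these were not used here.

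The analysis used edgeR 4.0.16 under R 4.3.3, with filterByExpr, TMM scaling and the quasi-likelihood test with Benjamini-Hochberg adjustment over all genes tested, on the 6 libraries of each comparison and on all 12 for the interaction. SE values are the absolute log2 fold change divided by the square root of F. Alternatives were DESeq2 1.42.0, edgeR's exact test, RLE or no scaling factors, other filters, 1 fit of all 12 libraries, a replicate block and each library left out. Of the listed genes, 21, with Greb1 and Cyp27b1 among them, were not in the table and were not analysed here. The scripts were tested on simulated counts. Total counts of 23.7 to 35.2 M limited precision for genes near the floor of 3 counts.

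The receptors, gene lists and comparisons were chosen with earlier results of these data known. Besides the receptors, Pparg, Pax8 and the retinoid X receptors, the named genes were called genes with a mean of at least 1 CPM, up to 8 other nuclear receptors and, from each list, up to 4 for PPFP versus EV cells and up to 3 for pioglitazone, with the largest fold changes, and a fixed set of standard target genes. A gene that this rule selects is not reported here. Abca1 with its block was chosen for detail after its values were seen.

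Pairing rests on the study's design of 3 independent experiments and on the correlation of deviations from group means, which for replicates 1 to 3 was 0.744, 0.465 and 0.433 in PPFP cells and 0.532, 0.729 and 0.773 in EV cells. In PPFP cells replicates 2 and 3 also correlated across numbers, at up to 0.536, above their own values, whereas in EV cells no correlation across numbers was above -0.04. Between cell lines it was between -0.38 and 0.317 for equal numbers. For different numbers it reached 0.511 without pioglitazone and 0.453 with it, so numbers were not taken as pairs there.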

Additional observations from a re-analysis of the deposited data

Results flagged for a closer look

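Among the genes named, 2 differed in their response to pioglitazone between the cell lines by the interaction term of edgeR's quasi-likelihood test. Dio1 had a difference, PPFP minus EV, of -0.79 on the log2 scale (SE 0.16, adjusted p = 0.026), with lower values with pioglitazone in 3 of 3 PPFP libraries and a log2 fold change of -0.01 (SE 0.13) in EV cells. With 1 library left out the difference lay between -0.88 and -0.66, with an adjusted p from 0.023 to 0.081. Rarb, named after its values were seen, had a difference of 1.39 (SE 0.32, adjusted p = 0.047). Its values were higher with pioglitazone in 3 of 3 PPFP libraries, and its log2 fold change in EV cells was -0.40, which adds to the difference. With 1 library left out the difference lay between 1.22 and 1.52, and the adjusted p, from 0.046 to 0.12, was under 0.05 only without EV replicate 3 with pioglitazone. With no filter on low counts the adjusted p was 0.071.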

How the results depend on the processing

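The values of single receptors moved by less than 1 SE for 589 values under other settings and by more for 16. Without pioglitazone, 5 receptors were called in PPFP versus EV cells, from 3 to 5 when 1 library was left out (14.2% to 16% of all genes called), and 6 in 1 fit of all 12 libraries (15.5%), where Esr2 was added. Without PPFP replicate 1 the receptors called were Esr1, Nr1h3 and Thrb, and without PPFP replicate 3 Esr1, Thrb and Vdr. With pioglitazone in both lines Esr2 was also called when EV replicate 1, 2 or 3 or PPFP replicate 1 with pioglitazone was left out, where 19% to 21.5% of all genes were called. In all these fits Esr2 passed the filter on low counts only through its PPFP libraries. For pioglitazone in PPFP cells between 0 and 1 receptors were called (1.58% to 2.92% of all genes) and between 4 and 7 genes of the lists, the lowest without replicate 2 of PPFP cells without pioglitazone. The number of receptors with a positive log2 fold change was 3 in EV cells with pioglitazone and 5 without EV replicate 3 with pioglitazone. For the difference in response it was 5, and 3 with at least 10 counts in every library, where 7 receptors were tested, and 3 without EV replicate 2 without pioglitazone. The cause was not tested.

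With the replicate block within the cell line 1 receptor, Nr1h3, was called for the difference in response, and 1, also Nr1h3, with DESeq2, against 0 in the fit without a block. For pioglitazone in PPFP cells the block left 1 receptor called (3.2% of all genes) and 8 genes of the lists in place of 7. For PPFP versus EV cells the numbers were not taken as pairs, and the block left 4 receptors called without pioglitazone and 7 with it, against 14.3% and 19.6% of all genes. Without pioglitazone Nr3c2 (-0.99) lost its call. With pioglitazone 7 of 8 receptors, all but Nr1h2, had an adjusted p under 0.05 with the block, against 44.2% of all genes.

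With library size alone, Fkbp5 turned to -0.0776 and Abca1 to -0.0594 in PPFP versus EV cells, and Rxrb to -0.0113 for pioglitazone in PPFP cells, with none called in either setting. With each library left out, values near 0 changed sign in PPFP versus EV cells for Fkbp5 (-0.10 to 0.11), Abca1 (-0.27 to 0.26), Hsd11b2 (-0.574 to 0.0775) and Thrsp (-0.309 to 0.0222). For pioglitazone in PPFP cells they did so for Pparg (-0.0214 to 0.161), Rxrb (-0.0892 to 0.121), Nr5a1 (-0.0861 to 0.273), Thrsp (-0.0504 to 0.311), Abca1 (-0.292 to 0.082), Nr1d1 (-0.0502 to 0.0402), Fkbp5 (-0.011 to 0.229) and Scnn1a (-0.625 to 0.0013). Of the receptors, values changed sign for Nr1h2 in PPFP versus EV cells (-0.0743 to 0.0028), for Esr2 with pioglitazone in PPFP cells (-0.245 to 0.833), for Nr3c1, Nr3c2, Thra, Thrb and Nr1h3 with pioglitazone in EV cells, and, without EV replicate 2 without pioglitazone, for Esr1 (-1.44) and Esr2 (-0.344) in the difference in response. Peaks near the receptors were planned and not run, because no annotation of the peaks' build was used. Low counts limit Esr2, and the floor of 3 counts limits Esr1 in EV cells.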
